A study of Mus musculus with 32 samples.

Results

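The 10 dorsoventral patterning transcription factors Pax6, Pax7, Foxa1, Foxa2, Nkx2-2, Nkx6-1, Olig2, Dbx1, Gsx2 and Sim1 were followed through 32 RNA-seq libraries of the E9.5 mouse brain. They were chosen by name and matched by Ensembl identifier, and all 10 were found among the 48576 identifiers of the tables. The libraries came from forebrain (Fb) and midbrain (Mb) tissue of B6C3F1 embryos, and each tissue had 6 WT, 4 TKO_Ex, 3 DKO_Ex and 3 DKO_CD libraries. TKO_Ex embryos lacked the type II cadherins Cdh6, Cdh8 and Cdh11 and had exencephaly, an open brain. DKO_Ex embryos were labelled as double knockouts of Cdh8 and Cdh11 with exencephaly, and DKO_CD embryos as double knockouts of Cdh6 and Cdh8 with a cranial defect, which the study's methods describe as a brain without exencephaly but with an elongated Mb. The methods name both DKO groups Cdh8/11, and in all 12 DKO tables the column heading names the other DKO group than the record does. The headings were followed here, and by the records every library called DKO_Ex below is a DKO_CD library and the reverse. All mutant alleles were small frameshift deletions in the exon with the start codon, brought together by mating triple heterozygous mice, so that a DKO embryo could carry any allele at the third locus. No treatment was given.

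Along the dorsoventral axis of the neural tube, cells take their identity from signals of opposite midlines. Shh from the notochord and the floor plate induces ventral factors, whereas Wnt and BMP proteins from the roof plate act dorsally, and factors of neighbouring domains repress each other. Pax7 marks the dorsal (alar) neural tube, Pax6 and Dbx1 intermediate levels, Nkx6-1, Olig2 and Nkx2-2 progressively more ventral progenitors, and Foxa1 and Foxa2 the floor plate and the ventral Mb. Gsx2 is a factor of the lateral ganglionic eminence of the later telencephalon, and Sim1 is known from the hypothalamus and from ventral interneurons. The comparison of open brains with WT asks whether the total level of dorsal or ventral factors differed where the brain failed to close. The paper reports that dorsal cells, Pax7-expressing ones among them, tended to spread ventrally in sections of DKO Mb, measured at an earlier stage than these libraries. It also reports a Shh domain that later became narrower. The level in a whole dissected tissue does not record where cells lie, so such a change of position was not tested.

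No member passed the threshold in any comparison of a mutant group with WT, in either tissue. The levels of the members instead followed the tissue, with Nkx6-1 and Foxa2 higher in the Mb and Olig2 higher in the Fb of WT embryos. Pax6, Dbx1 and Olig2 varied together from one Mb library to the next. Values are FPKM, fragments per length of transcript, scaled to the mapped fragments of the library, and differences are of mean log2(FPKM + 1), on which a low gene's change is understated. An adjusted p is Benjamini-Hochberg adjusted over all genes of a limma fit, and the threshold was 0.05.

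The estimated depth was low, at 1955000 to 3245000 fragments per library, and it limits the precision for members of a few FPKM, above all below 1 FPKM. WT Mb replicate 5 stood apart, with a summed level of 5 midbrain markers of 16.4 FPKM against 91.2 to 181 FPKM in the other WT Mb libraries, and the values that it moved most are given without it too. In the comparison of WT Mb with WT Fb, the calls of Pax7 and Foxa1 were lost without it (limma adjusted p = 0.0947 and 0.0542), while Nkx6-1, Foxa2, Olig2 and Pax6 still passed. The library labelled TKO_Ex replicate 3 had a Cdh6 level of 3.74 FPKM in Fb and 3.10 FPKM in Mb, within the WT ranges of 2.04 to 4.0 and 1.04 to 3.55 FPKM, while the other TKO_Ex libraries had 0.572 to 1.84 FPKM in Fb and 0.345 to 0.388 FPKM in Mb. Without TKO_Ex replicate 3, no member of TKO_Ex passed the threshold either. In DKO_CD, labelled as lacking Cdh6, the Cdh6 level was 1.72 to 3.43 FPKM in Fb and 1.29 to 2.11 FPKM in Mb. In DKO_Ex it was 3.62 to 4.34 FPKM in Fb and 1.86 to 3.12 FPKM in Mb. Both DKO groups thus overlapped the WT ranges of Cdh6, and which DKO genotype is right was not tested. The labelled tissues carried their markers. The summed level of 6 forebrain markers was 103 to 246 FPKM over the Fb groups and 0.756 to 15.6 FPKM over the Mb groups. In bulk tissue, fewer cells of a type and less RNA per cell cannot be told apart.

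Nkx6-1, a homeodomain factor of ventral progenitors (chr5:101658139-101664996, minus strand, GRCm38), was the member with the clearest Mb level. In WT Fb its lowest, median and highest values were 1.67, 2.76 and 4.60 FPKM, and in WT Mb they were 9.27, 14.2 and 17.7 FPKM. Every WT Mb library lay above every WT Fb library. The difference was 1.94 ± 0.19 (log2, SE, n = 6 and 6, limma adjusted p = 1.75e-05).

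Foxa2, the forkhead factor of the floor plate (chr2:148042877-148046969, minus strand), showed the same order. Its values were 2.31, 4.23 and 6.66 FPKM in WT Fb and 7.79, 11.5 and 15.7 FPKM in WT Mb, again without overlap. The difference was 1.26 ± 0.22 (log2, SE, limma adjusted p = 0.00232). Foxa1, its close relative (chr12:57540628-57546916, minus strand), was 1.29, 3.16 and 4.14 FPKM in WT Fb and 3.83, 5.48 and 8.04 FPKM in WT Mb, and these ranges overlapped. Its difference of 0.83 ± 0.22 passed the threshold (limma adjusted p = 0.0345), but it lost it under 11 of 19 alternative settings (adjusted p 0.0264 to 0.139).

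Olig2, a basic helix-loop-helix factor of motor neuron progenitors (chr16:91225457-91228677, plus strand), had the opposite order. Its lowest, median and highest values were 6.86, 11.7 and 16.7 FPKM in WT Fb and 0, 0.859 and 3.54 FPKM in WT Mb. The highest WT Mb value belonged to replicate 5, and no WT Mb library reached the lowest WT Fb library. The difference was -2.74 ± 0.32 (log2, SE, limma adjusted p = 7.44e-05), and without WT Mb replicate 5 it was -3.00 (adjusted p = 6.68e-06).

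Pax6, a paired homeodomain factor (chr2:105668900-105697364, plus strand), was high and even in WT Fb, at 46.5, 53.5 and 65.9 FPKM (lowest, median, highest). In WT Mb the 6 libraries had 6.83, 8.87, 14.3, 18.3, 45.9 and 52.7 FPKM. The 2 highest, replicates 3 and 5, came close to or reached the Fb range, and replicate 5 was the library with few midbrain markers. The difference of -1.50 ± 0.42 passed the threshold (limma adjusted p = 0.0425), and without replicate 5 it was -1.79 (adjusted p = 0.00872), but the call was lost under 13 of 19 alternative settings (adjusted p 0.00872 to 0.0887). Pax7, its dorsal relative (chr4:139737062-139833528, minus strand), was 1.74, 2.54 and 3.67 FPKM in WT Fb and 3.0, 5.23 and 7.18 FPKM in WT Mb. Its difference was 0.73 ± 0.20 (limma adjusted p = 0.0425), a call that was lost under 9 of 19 settings (adjusted p 0.00562 to 0.0990).

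Dbx1, a homeodomain factor of intermediate progenitors (chr7:49631499-49636849, minus strand), was 7.36, 13.7 and 20.0 FPKM in WT Fb and 8.81, 19.5 and 29.3 FPKM in WT Mb, with overlap. Nkx2-2, a homeodomain factor next to the floor plate (chr2:147177546-147194243, minus strand), was 0.805, 2.14 and 6.32 FPKM in WT Fb and 0.947, 2.73 and 6.37 FPKM in WT Mb. Neither passed the threshold between the tissues, with differences of 0.33 (95% interval -0.37 to 1.03) and 0.11 (95% interval -0.65 to 0.87), and without WT Mb replicate 5 that of Dbx1 was 0.19. Of the 8 members tested between WT Mb and WT Fb, 4 were thus higher in Mb and 2 lower, where 4.66% and 3.6% of the 13344 genes tested were called in these directions and 8.26% in all. Foxa2, Nkx6-1 and Olig2 had groups that did not overlap, as did 5.59% of all genes tested. These 3 passed the threshold in all 19 alternatives. Fb and Mb were dissected from embryos, and no label says that a shared number marks the same embryo. With the number as a replicate block these 3 members passed, and Pax6, Pax7 and Foxa1 did not (limma adjusted p = 0.0703, 0.0990 and 0.117).

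The 2 remaining members were near the limit of detection and did not pass the filter of a mean of 1 FPKM. Gsx2 (chr5:75075601-75077893, plus strand) was listed at 0 in 1 WT Fb library and reached 2.97 FPKM, with a median of 0.693 FPKM, whereas all 6 WT Mb libraries had it at 0 (two-sided exact permutation test, p = 0.0152). The highest WT Fb value rested on an estimated 13.7 fragments. Sim1 (chr10:50894754-50989152, plus strand) was 0.104, 0.162 and 0.243 FPKM in WT Fb and 0.196, 0.498 and 0.989 FPKM in WT Mb (lowest, median, highest). The difference of 0.41 (log2) had an exact permutation p of 0.00433, and the Fb values stood for an estimated 2.30 to 5.74 fragments. Such tests were made for 19 pairs of member and comparison in all, and their p-values are not adjusted.

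The order of the mean levels differed between the tissues. In WT Fb, Pax6 stood first at 54.9 ± 7.85 FPKM (SD, n = 6), followed by Dbx1 at 13.9 ± 4.12 and Olig2 at 11.9 ± 3.63 FPKM, which did not differ beyond their spread. Foxa2 at 4.28 ± 1.51, Nkx6-1 at 2.93 ± 1.03, Foxa1 at 2.93 ± 1.18, Nkx2-2 at 2.90 ± 2.0 and Pax7 at 2.72 ± 0.719 FPKM came next and overlapped each other. In WT Mb, Pax6 at 24.5 ± 19.8, Dbx1 at 19.3 ± 10.2, Nkx6-1 at 14.0 ± 3.04 and Foxa2 at 11.6 ± 3.52 FPKM formed an overlapping upper set. Foxa1 at 5.83 ± 1.5, Pax7 at 5.29 ± 1.79 and Nkx2-2 at 3.13 ± 1.85 FPKM followed, and Olig2 at 1.11 ± 1.26 FPKM was near Sim1 at 0.573 ± 0.323 FPKM.

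**Figure D1:**
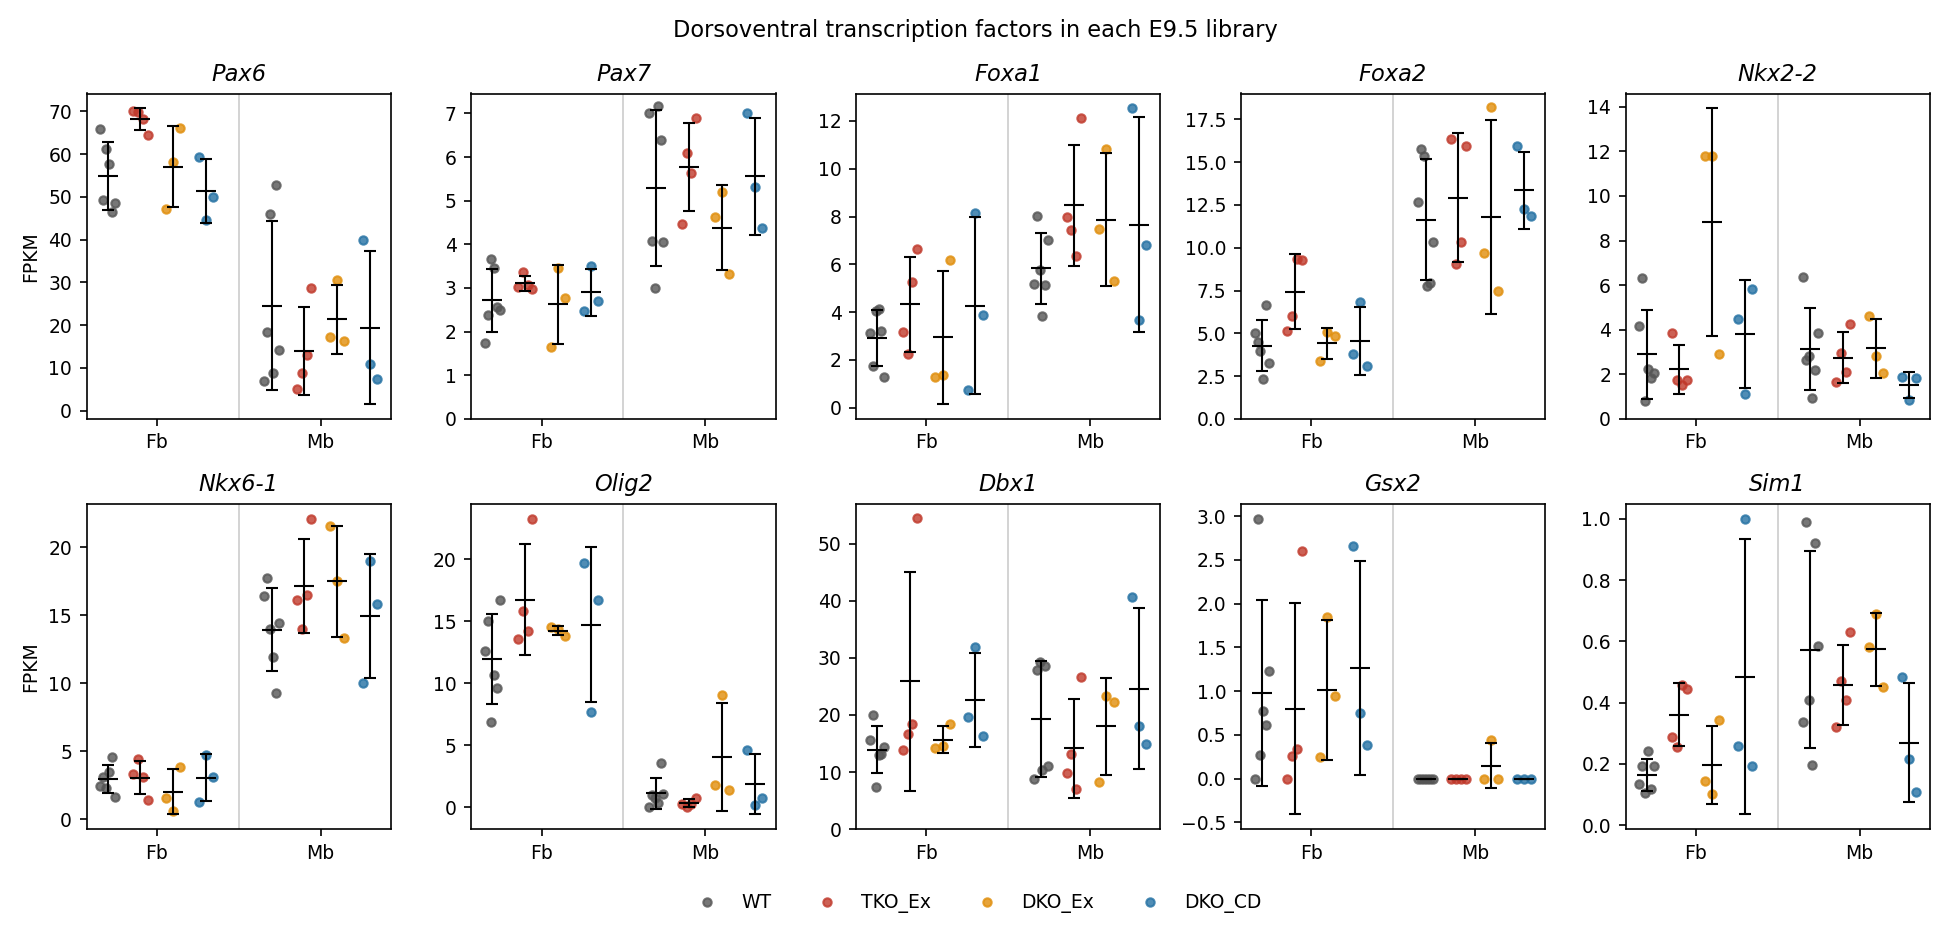
Each point is the FPKM of a member in 1 library, in Fb on the left and Mb on the right of each panel, coloured by group, with the mean and SD in black. Nkx6-1 and Foxa2 sit higher in Mb than in Fb in WT, Olig2 sits higher in Fb, and the mutant groups overlap WT for the 8 members that entered the fits.

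The promoters of 3 of these members are shown from RefSeq (GRCm38.p6), as the 250 bases before the transcription start, 5′ to 3′ on the gene's strand. Nkx6-1 and Olig2 are shown as the members with the largest differences between the tissues, and Foxa1 as the only member in which a searched motif was found. The motifs, searched on both strands, were GACCACCCA for Gli factors, TGTTTAC for forkhead factors, TAATTA for homeodomain factors and CAGCTG for basic helix-loop-helix factors, and matches are in capitals.
Nkx6-1 (chr5:101664712-101664961, minus strand): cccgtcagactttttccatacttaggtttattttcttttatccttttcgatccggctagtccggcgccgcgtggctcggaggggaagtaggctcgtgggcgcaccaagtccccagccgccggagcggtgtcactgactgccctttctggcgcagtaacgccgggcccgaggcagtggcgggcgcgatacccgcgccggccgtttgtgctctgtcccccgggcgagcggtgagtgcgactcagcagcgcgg
Olig2 (chr16:91225300-91225549, plus strand): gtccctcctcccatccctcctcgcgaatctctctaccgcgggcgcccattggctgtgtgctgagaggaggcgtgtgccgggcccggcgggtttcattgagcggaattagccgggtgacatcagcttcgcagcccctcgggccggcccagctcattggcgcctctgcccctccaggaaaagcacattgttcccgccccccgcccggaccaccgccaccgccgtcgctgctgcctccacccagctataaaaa
Foxa1 (chr12:57546112-57546361, minus strand): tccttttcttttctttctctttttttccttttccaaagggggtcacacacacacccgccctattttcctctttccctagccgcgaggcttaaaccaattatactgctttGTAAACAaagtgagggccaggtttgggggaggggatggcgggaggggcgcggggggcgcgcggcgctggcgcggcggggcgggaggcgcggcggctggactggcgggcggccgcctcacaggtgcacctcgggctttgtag
All 10 members had a window, with 13 windows in all, since Pax6 had 2 and Foxa2 had 3. The forkhead letters stood in 3.17% of all 32851 windows of this length and, among the members, in that of Foxa1, on the opposite strand. The homeodomain, basic helix-loop-helix and Gli letters stood in 4.84%, 13% and 0.225% of all windows and in none of the 13. A match is a description of letters and not a site.

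In the exencephalic Mb, the dorsal member Pax7 lay within the WT range. It was 4.46, 5.64, 6.09 and 6.90 FPKM in the 4 TKO_Ex Mb libraries and 3.31, 4.64 and 5.20 FPKM in the 3 DKO_Ex Mb libraries, against 3.0 to 7.18 FPKM in WT Mb. No exencephalic library fell outside the WT range, which does not show where in the Mb Pax7 was expressed. With both exencephalic groups together (n = 7) the difference from WT was 0.00 ± 0.19 (log2, SE), with a 95% interval of -0.41 to 0.41 (limma adjusted p = 0.999).

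The floor plate factors overlapped WT, with libraries outside its range for both. Foxa2 was 9.06, 10.3, 16 and 16.3 FPKM in TKO_Ex Mb and 7.48, 9.67 and 18.2 FPKM in DKO_Ex Mb, against 7.79 to 15.7 FPKM in WT Mb, and its difference was 0.07 (95% interval -0.41 to 0.55). The values of 16, 16.3 and 18.2 FPKM were above the WT range, and that of 7.48 FPKM was below it. Foxa1 was 6.34, 7.43, 7.99 and 12.1 FPKM in TKO_Ex Mb and 5.31, 7.47 and 10.8 FPKM in DKO_Ex Mb, against 3.83 to 8.04 FPKM in WT Mb. The 2 highest Foxa1 values, both above WT, were in TKO_Ex replicate 4 and DKO_Ex replicate 2. The difference of Foxa1 was 0.42 ± 0.18 (log2, SE), and its limma adjusted p was 0.650 (unadjusted p = 0.0382).

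Nkx6-1 was 14.0, 16.1, 16.5 and 22.1 FPKM in TKO_Ex Mb and 13.3, 17.6 and 21.6 FPKM in DKO_Ex Mb, where WT Mb had 9.27 to 17.7 FPKM, so that 5 of the 7 exencephalic libraries were within the WT range. The difference was 0.30 (95% interval -0.03 to 0.62, limma adjusted p = 0.707), and 0.19 without WT Mb replicate 5. Nkx2-2 was 1.66 to 4.25 FPKM in TKO_Ex Mb and 2.06 to 4.61 FPKM in DKO_Ex Mb, inside the WT range of 0.947 to 6.37 FPKM, with a difference of -0.01 (95% interval -0.59 to 0.58).

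The intermediate factors overlapped WT as well. Pax6 was 5.15, 8.79, 13.1 and 28.7 FPKM in TKO_Ex Mb and 16.4, 17.1 and 30.6 FPKM in DKO_Ex Mb, with a difference from WT of -0.31 (95% interval -1.36 to 0.74). Dbx1 was 6.98, 9.83, 13.1 and 26.6 FPKM in TKO_Ex Mb and 8.26, 22.4 and 23.4 FPKM in DKO_Ex Mb, with a difference of -0.26 (95% interval -1.06 to 0.54). Without WT Mb replicate 5 the differences were -0.02 and -0.12. The study used Pax6 as a forebrain marker, with its limit at the Fb/Mb boundary, so its Mb level is not a dorsoventral readout alone.

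Olig2 in the Mb differed between the mutant groups in its values but passed no test. It was 0, 0.211, 0.225 and 0.752 FPKM in TKO_Ex Mb, 1.35, 1.77 and 9.09 FPKM in DKO_Ex Mb and 0.177, 0.704 and 4.63 FPKM in DKO_CD Mb. The TKO_Ex values stood for an estimated 0 to 4.44 fragments, and the high DKO_Ex and DKO_CD values each came from 1 library. The difference was -0.56 for TKO_Ex (exact permutation test, p = 0.205, smallest possible p = 0.00476), 1.11 for DKO_Ex (limma adjusted p = 0.904) and 0.26 for DKO_CD (limma adjusted p = 0.957). Gsx2 was listed at 0 in every Mb library but DKO_Ex replicate 2, at 0.444 FPKM, which was also the library with the highest Olig2 of its group. Sim1 stayed at 0.321 to 0.690 FPKM in the exencephalic Mb, inside the WT range.

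Of the members tested, 0 of 7 were called in TKO_Ex Mb, 0 of 8 in DKO_Ex Mb and 0 of 8 in both exencephalic groups together, where 0.0898%, 0.0903% and 0.12% of all genes were called. With so small a share of all genes called, 0 of 8 is near the background. None of the 8 members had exencephalic Mb libraries that did not overlap WT, as 0.285% of genes did. At an unadjusted p under 0.05 there were 1 of the 8 members (Foxa1) and 974 of 13348 genes (7.3%) in both groups together, 1 member (Foxa1) and 8.38% of genes in TKO_Ex Mb, and 0 members and 5.46% of genes in DKO_Ex Mb. The median difference of the 8 members was 0.04, beside 0.02 for all genes tested.

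In the exencephalic Fb, 7 of the 8 members tested had a difference above 0 in TKO_Ex, none of them past the threshold. Foxa2 was 5.13, 6.01, 9.28 and 9.32 FPKM in TKO_Ex Fb and 3.39, 4.82 and 5.05 FPKM in DKO_Ex Fb, against 2.31 to 6.66 FPKM in WT Fb. The 2 highest libraries were TKO_Ex replicates 3 and 4. The difference in TKO_Ex was 0.69 ± 0.24 (log2, SE, n = 4 and 6, limma adjusted p = 0.454, unadjusted p = 0.0163), and in DKO_Ex it was 0.07 ± 0.25. Without TKO_Ex replicate 3, the library with Cdh6 in the WT range, it was 0.58 (limma adjusted p = 0.584).

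Markers of other cell types moved with Foxa2 in the Fb, with a correlation over the 16 libraries of 0.705 (Spearman 0.626) for surface ectoderm and 0.744 (Spearman 0.641) for foregut endoderm. Other marker sums went the opposite way, at -0.647 (Spearman -0.65) for endothelium and -0.630 (Spearman -0.376) for forebrain. For midbrain the value was -0.594 (Spearman -0.524), and for neural crest and mesenchyme -0.518 (Spearman -0.512). The summed level of 5 surface ectoderm markers was 83.3, 82.4, 153 and 213 FPKM in TKO_Ex Fb replicates 1 to 4, against 53.0 to 86.0 FPKM in WT Fb, with no marker at 0. The summed level of 6 foregut endoderm markers was 38.8, 40.0, 74.6 and 92.0 FPKM in the same libraries, against 26.6 to 58.1 FPKM in WT Fb, and nearly all of it was Cldn6. Foxa3 was at 0 in all WT and TKO_Ex Fb libraries, and Ttr and Spink1 were at 0 in all TKO_Ex Fb libraries. Their part in the Foxa2 values was not tested.

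Pax6 was 64.5, 68.2, 69.7 and 70.1 FPKM in TKO_Ex Fb, all in the upper part of or above the WT range of 46.5 to 65.9 FPKM. The difference was 0.32 ± 0.11 (log2, SE, limma adjusted p = 0.417, unadjusted p = 0.0118), the smallest unadjusted p of any member in the limma fits against WT. In DKO_Ex Fb Pax6 was 47.1, 58.0 and 66.1 FPKM, with a difference of 0.05 ± 0.14. Olig2 was 13.6, 14.2, 15.9 and 23.3 FPKM in TKO_Ex Fb and 13.9, 14.4 and 14.6 FPKM in DKO_Ex Fb, against 6.86 to 16.7 FPKM in WT Fb, and for both groups together its difference was 0.39 ± 0.18 (limma adjusted p = 0.613, unadjusted p = 0.0448).

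Dbx1 was 13.9, 16.7, 18.4 and 54.5 FPKM in TKO_Ex Fb. The highest value, in replicate 4, was also the highest Dbx1 level of all 32 libraries, and the other TKO_Ex libraries lay within the WT range. The same library held the highest Gsx2 level of its group, 2.60 FPKM against 0 to 0.335 FPKM. It had the lowest forebrain marker sum of its group, 103 FPKM, and the highest surface ectoderm sum, 213 FPKM, whose part in these values was not tested. The difference of Dbx1 was 0.69 in TKO_Ex Fb (limma adjusted p = 0.62), 0.26 without replicate 4, and 0.20 in DKO_Ex Fb (limma adjusted p = 0.911).

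Nkx2-2 was 11.8, 11.8 and 2.93 FPKM in DKO_Ex Fb replicates 1 to 3, against 0.805 to 6.32 FPKM in WT Fb and 1.51 to 3.86 FPKM in TKO_Ex Fb. In the first 2 of these libraries it was above every other library of the series. The difference was 1.29 ± 0.48 (log2, SE, n = 3 and 6, limma adjusted p = 0.617, unadjusted p = 0.0231), and with any 1 library left out it was 1.01 to 1.86 (limma adjusted p 0.355 to 0.864). Nkx6-1 in the same 3 libraries was 1.55, 0.637 and 3.85 FPKM and Foxa1 was 1.29, 1.38 and 6.17 FPKM, the 2 libraries with high Nkx2-2 having the low values.

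Pax7 in the Fb was 2.98 to 3.36 FPKM in TKO_Ex and 1.65 to 3.45 FPKM in DKO_Ex, against 1.74 to 3.67 FPKM in WT, and the difference of both groups together was 0.07 (95% interval -0.27 to 0.42). For Nkx6-1 and Foxa1 it was -0.19 (95% interval -0.79 to 0.40) and 0.18 (95% interval -0.52 to 0.87). Of the 8 members tested, 0 were called in TKO_Ex Fb, in DKO_Ex Fb and in both together, where 0.0603%, 0.0759% and 0.173% of all genes were called. At an unadjusted p under 0.05 there were 2 members in TKO_Ex Fb (Pax6 and Foxa2), 1 in DKO_Ex Fb (Nkx2-2) and 1 in both together (Olig2), beside 8.66%, 7.01% and 8.08% of all genes. None of these 8 was without overlap between both exencephalic groups and WT, as 0.468% of genes were. The median difference of the 8 members was 0.37 in TKO_Ex Fb beside 0.02 for all genes tested, and 7 of the 8 differences were above 0.

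Sim1 was the only member in a mutant group whose libraries all lay on one side of WT. It was 0.255, 0.289, 0.443 and 0.458 FPKM in TKO_Ex Fb, above the highest WT Fb library at 0.243 FPKM. The exact two-sided permutation p was 0.00476, the lowest value possible with 4 against 6 libraries, and 2.23% of the genes that passed the filter did not overlap in this comparison. These values stood for an estimated 5.77 to 8.09 fragments, against 2.30 to 5.74 fragments in WT, so the separation amounts to few fragments. In DKO_CD Fb Sim1 was 0.194, 0.257 and 1.0 FPKM (exact permutation test, p = 0.0238), with overlap, and in DKO_Ex Fb it was 0.103 to 0.343 FPKM (exact permutation test, p = 0.655). The value of 1.0 FPKM was that of DKO_CD Fb replicate 2, a library with surface ectoderm markers above and forebrain markers below the WT Fb range.

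**Figure D2:**
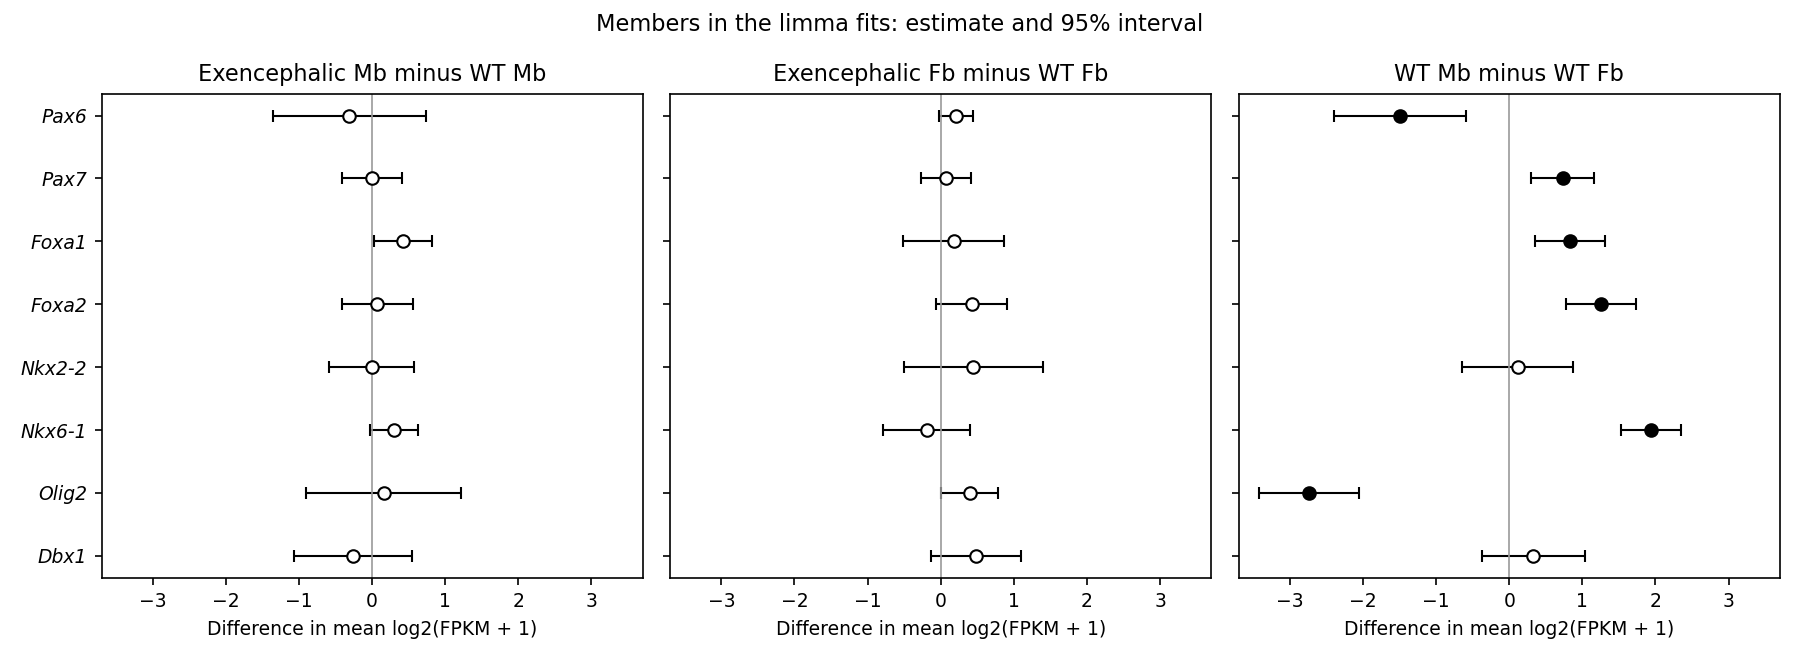
Differences in mean log2(FPKM + 1) of the 8 members that entered the limma fits, with 95% intervals, filled where the adjusted p was under 0.05. In the exencephalic Mb and Fb no member is filled, while Pax6, Pax7, Foxa1, Foxa2, Nkx6-1 and Olig2 are filled in the comparison of the WT tissues.

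The DKO_CD brains, which were not open, did not differ past the threshold either. In the Mb 0 of 8 members were called, where 0.0375% of all genes were, and in the Fb 0 of 9, where 0.0378% were. At an unadjusted p under 0.05 there were 0 and 1 members, beside 6.69% and 8.44% of all genes. Dbx1 had the lowest unadjusted p in DKO_CD Fb, at 16.4, 19.7 and 31.9 FPKM against 7.36 to 20.0 FPKM in WT Fb, with a difference of 0.66 (limma adjusted p = 0.563). Only the highest value, in DKO_CD Fb replicate 2, lay above WT. That library had a surface ectoderm sum of 194 FPKM, against 53.0 to 86.0 FPKM in WT Fb. Its forebrain sum was 114 FPKM, against 154 to 212 FPKM in WT Fb. The part of these marker differences in its Dbx1 level was not tested. Pax7 and Foxa2 in DKO_CD Mb were 4.37 to 7.0 and 11.9 to 16 FPKM, with differences of 0.09 and 0.22.

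DKO embryos with and without an open brain were then compared. Nkx2-2 was 2.06, 2.83 and 4.61 FPKM in DKO_Ex Mb and 0.831, 1.86 and 1.87 FPKM in DKO_CD Mb, so that every DKO_Ex library was above every DKO_CD library, as was true in either direction of 12.2% of all genes. The difference was 0.71 ± 0.32 (log2, SE, n = 3 and 3, limma adjusted p = 0.778). In the Mb 0 of 8 members were called, beside 0.045% of all genes, and in the Fb 0 of 9, beside 0.00753%, and at an unadjusted p under 0.05 there were 0 in either tissue, beside 6.48% and 5.54%. By the records the sign of each of these differences is the opposite, and no member passed the threshold under either grouping.

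Whether the effect of an open brain differed between Mb and Fb was tested as an interaction over 26 libraries. No gene passed the threshold, 0.0% of 13414, with 630 at an unadjusted p under 0.05 and none of the 8 members among them. The largest member difference was that of Dbx1, -0.74 (95% interval -1.76 to 0.28, limma adjusted p = 0.990).

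The balance of a more dorsal and a more ventral member within a library overlapped WT in every mutant group, for all 3 ratios computed. The log2 ratio of Pax7 to Foxa2, each with 1 FPKM added, had a median of -0.97 in WT Mb (-2.03 to -0.10), -0.94 in TKO_Ex Mb (-1.67 to -0.50), -0.98 in DKO_Ex Mb (-1.63 to -0.92) and -1.08 in DKO_CD Mb (-1.26 to -1.07). All mutant Mb libraries lay inside the WT range. In the Fb the medians were -0.49 in WT (-1.13 to 0.43), -1.01 in TKO_Ex (-1.37 to -0.61), -0.62 in DKO_Ex and -0.46 in DKO_CD. The TKO_Ex Fb ratios reached below the WT range. The ratio of Pax7 to Nkx6-1 was -2.0 to -1.58 in DKO_Ex Mb and -1.65 to -1.08 in TKO_Ex Mb, against -1.91 to -0.48 in WT Mb, and in the Fb its median was -0.06 in TKO_Ex and -0.15 in WT. The ratio of Pax6 to Foxa2 was -1.50 to 0.81 in TKO_Ex Mb and 0.72 to 1.03 in DKO_Ex Mb, against -0.81 to 2.58 in WT Mb.

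Other genes of the dorsoventral axis were taken from lists of 10 dorsal genes, 2 genes of both midlines, 6 intermediate genes and 15 ventral genes. Between the WT tissues, 6 of 9 tested dorsal genes were higher in Mb, as were 1 of 2 midline genes, 3 of 3 intermediate genes and 4 of 13 ventral genes, while 2 ventral genes were lower. Wnt1, the roof plate ligand, was higher by 3.09 (log2), and Pax3, the dorsal relative of Pax7, by 1.40, beside Gdf7 (1.72), Wnt3a (1.72), Msx1 (1.03) and Msx2 (0.71). Lmx1b was higher by 1.63, and the intermediate genes Irx3 and Prdm12 by 2.02 and 1.95. Of the ventral genes, Nkx6-2 (3.12), Phox2a (2.37), Ntn1 (1.46) and Spon1 (0.84) were higher in Mb, and Nkx2-1 (-4.20), known from the ventral Fb, was lower. Shh, the ventral ligand itself, was 8.20 to 16.5 FPKM in WT Fb and 7.86 to 17.5 FPKM in WT Mb, with a difference of -0.08 (limma adjusted p = 0.884).

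None of these genes passed the threshold in a mutant comparison. At an unadjusted p under 0.05 there were 2 of 11 ventral genes tested and 0 others in the exencephalic Mb, and 1 of 11 ventral genes and 0 others in the exencephalic Fb, beside 7.3% and 8.08% of all genes. Shh was 8.88 to 25.4 FPKM in TKO_Ex Mb and 7.60 to 19.0 FPKM in DKO_Ex Mb, and its difference in the exencephalic Mb was 0.13 (95% interval -0.45 to 0.70). Pax3 was 9.06 to 16.7 FPKM in TKO_Ex Mb and 9.86, 10.2 and 10.3 FPKM in DKO_Ex Mb, against 11.4 to 23.1 FPKM in WT Mb. All 3 DKO_Ex libraries were below WT, with a difference of -0.50 (95% interval -1.0 to 0.01, limma adjusted p = 0.904).

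In DKO_Ex Mb, Gli1, a direct target of Shh signalling, was 21.6, 22.1 and 23.8 FPKM, against 5.96 to 14.5 FPKM in WT Mb and 12.4 to 18.3 FPKM in DKO_CD Mb. Nkx6-2, a relative of Nkx6-1, was 42.3, 42.7 and 45.3 FPKM, against 20.0 to 36.8 FPKM in WT Mb and 25.0 to 27.3 FPKM in DKO_CD Mb. Both stood above every WT Mb library, while 3.0% of genes did not overlap WT in either direction. They also stood above every DKO_CD Mb library, where 12.2% of genes did not overlap in either direction. By the records the 3 DKO_Ex Mb libraries are the DKO_CD ones. The difference of Gli1 from WT was 1.04 ± 0.25 (log2, SE, limma adjusted p = 0.451, unadjusted p = 0.00173), and that of Nkx6-2 from DKO_CD was 0.73 ± 0.10 (limma adjusted p = 0.188, unadjusted p = 0.000155). Of the 11 ventral genes tested in DKO_Ex Mb against WT, 6 had a difference above 0. The median difference of the ventral list was 0.05, beside 0.03 for all genes tested. At an unadjusted p under 0.05 there were 2 of them, beside 5.46% of all genes.

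The genes with the lowest unadjusted p of their lists had the following differences, none past the threshold. In the exencephalic Mb these were Msx3 (1.62), Lmx1a (-0.29), Irx3 (-0.09) and Nkx6-2 (0.47, limma adjusted p = 0.402). In the exencephalic Fb they were Wnt1 (0.57), Lmx1b (0.15) and Nkx2-9 (0.55, limma adjusted p = 0.416). In TKO_Ex Mb they were Msx3 (2.13), Lmx1a (-0.24), Irx3 (-0.13) and Nkx6-2 (0.35), and in TKO_Ex Fb Wnt1 (0.95), Lmx1b (0.46) and Spon1 (0.57). In DKO_Ex Mb they were Pax3, Lmx1a (-0.36), Prdm12 (0.16) and Gli1, and in DKO_Ex Fb Wnt3a (0.22), Lmx1a (-0.24), Irx3 (-0.37) and Nkx2-9 (0.60). Msx3 varied widely in WT Mb, with 3 libraries at 0 and a highest value of 21.6 FPKM. It was 7.57 to 15.8 FPKM in TKO_Ex Mb and 0.488 to 10.7 FPKM in DKO_Ex Mb.

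In DKO_CD Mb the genes with the lowest p of their lists were Msx1 (0.44), Lmx1a (-0.24), Irx3 (-0.22) and Gli1 (0.45), and in DKO_CD Fb they were Zic1 (0.34), Lmx1a (0.11) and Isl1 (0.68). Between DKO_Ex and DKO_CD they were Zic1 (-0.44), Lmx1a (-0.12), Irx3 (0.19) and Nkx6-2 in the Mb, and Zic1 (-0.30), Lmx1a (-0.35) and Nkx2-9 (0.93) in the Fb. In the interaction they were Pax3 (-0.54), Lmx1a (-0.24) and Isl1 (-0.66). The median differences of the dorsal and ventral lists were -0.11 and 0.17 in the exencephalic Mb, beside 0.02 for all genes, and 0.20 and 0.20 in the exencephalic Fb, beside 0.01. In TKO_Ex Fb they were 0.35 and 0.09, beside 0.02, with 6 of 6 dorsal and 6 of 11 ventral genes above 0. For DKO_Ex against DKO_CD they were -0.39 and 0.18 in the Mb, beside 0.01, with 2 of 10 and 8 of 13 genes above 0. In the Fb they were -0.22 and -0.05, beside -0.05, with 0 of 7 and 6 of 12 above 0. No list was tested as a set.

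**Figure D3:**
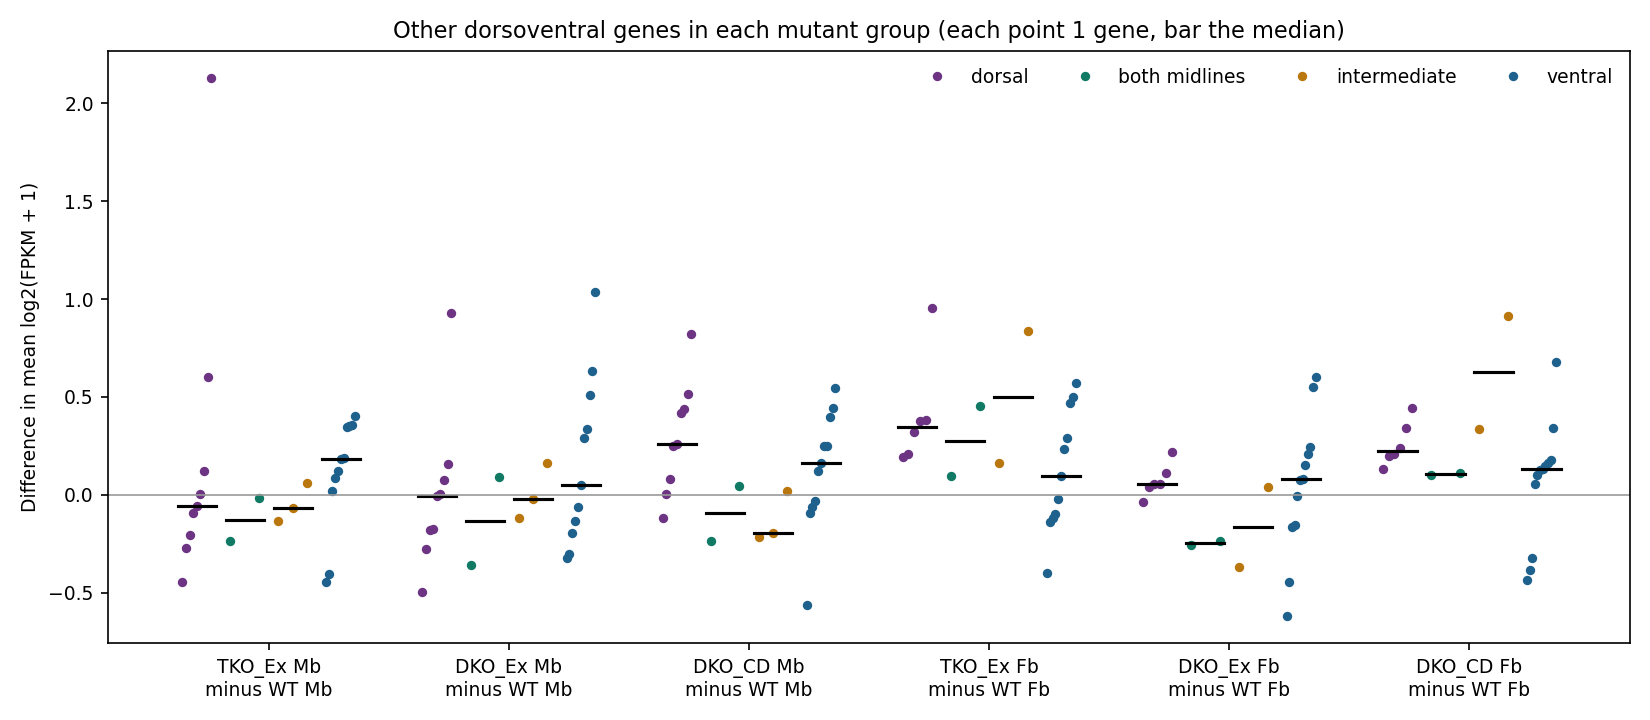
Difference from WT in mean log2(FPKM + 1) of the other dorsoventral genes that entered each fit, by list, for each mutant group and tissue, with the median as a bar. Points lie on both sides of 0 in every group, the highest is Msx3 in TKO_Ex Mb at 2.13, and none passed the threshold. The WT Mb libraries of Msx3 ranged from 0 to 21.6 FPKM. In TKO_Ex Fb and DKO_CD Fb the points of the dorsal, midline and intermediate lists are all above 0.

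Across the 16 Mb libraries, 3 members moved together. The correlation of log2(FPKM + 1) was 0.760 (Pearson, Spearman 0.744) for Pax6 and Dbx1, 0.714 (Spearman 0.786) for Pax6 and Olig2 and 0.569 (Spearman 0.515) for Olig2 and Dbx1, among the 28 pairs compared. Without WT Mb replicate 5 (n = 15) the values were 0.742, 0.672 and 0.528, within the 10 mutant libraries they were 0.676, 0.766 and 0.556, and without the 2 libraries farthest from the median of the first gene of each pair they were 0.71, 0.790 and 0.465. Foxa1 and Foxa2 correlated at 0.632 (Spearman 0.638, 0.609 without WT Mb replicate 5, 0.695 without the 2 farthest). These are descriptions over libraries that share their scaling, without a test. In the Fb, Pax6 correlated at -0.00423 with Dbx1 and 0.24 with Olig2, while Olig2 and Dbx1 correlated at 0.486 (Spearman 0.503, 0.855 within WT). The largest in size there was that of Foxa1 and Nkx2-2 at -0.608 (Spearman -0.635, -0.450 within WT).

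Markers of position along the anteroposterior axis and of neuroepithelium moved with these members. The summed level of 5 hindbrain markers in the Mb libraries was 0.790 to 14.9 FPKM in WT, 6.67 to 11.6 in TKO_Ex, 4.44 to 9.42 in DKO_Ex and 1.98 to 9.86 FPKM in DKO_CD. Most of it was Gbx2, a gene of the anterior hindbrain, while Hoxb1 was at 0 in all Mb libraries and Egr2, Hoxa2 and Hoxb2 in most. The correlation with this sum was -0.812 (Spearman -0.785) for Pax6, -0.746 (Spearman -0.779) for Dbx1 and -0.596 (Spearman -0.649) for Olig2, and without WT Mb replicate 5 it was -0.769, -0.788 and -0.536. For Nkx6-1 it was 0.664 (Spearman 0.432), and 0.181 without the 2 libraries farthest from the median, so that this value rests on them. For Pax6 and Dbx1 it was -0.716 and -0.709 without the 2 farthest, and for Olig2 -0.352.

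The forebrain markers showed the reverse. Their summed level was 13.1 FPKM in WT Mb replicate 5, where Pax6 was highest among WT Mb, and 15.6 FPKM in DKO_CD Mb replicate 1, where Pax6 was 40.0 FPKM and Dbx1 40.7 FPKM. The lowest sum, 0.756 FPKM, was in WT Mb replicate 1, with 6.83 FPKM of Pax6 and 0 of Olig2. The correlation with the forebrain sum was 0.679 for Pax6, 0.647 for Dbx1 and 0.645 for Olig2 (0.484, 0.460 and 0.446 without the 2 farthest). The sum of 4 neuroepithelium markers, 277 to 384 FPKM over the Mb groups, correlated at 0.728 with Pax6, 0.729 with Dbx1 and 0.587 with Olig2 (0.662, 0.691 and 0.640 without the 2 farthest). The part of these marker differences in the levels of the members was not tested.

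**Figure D4:**
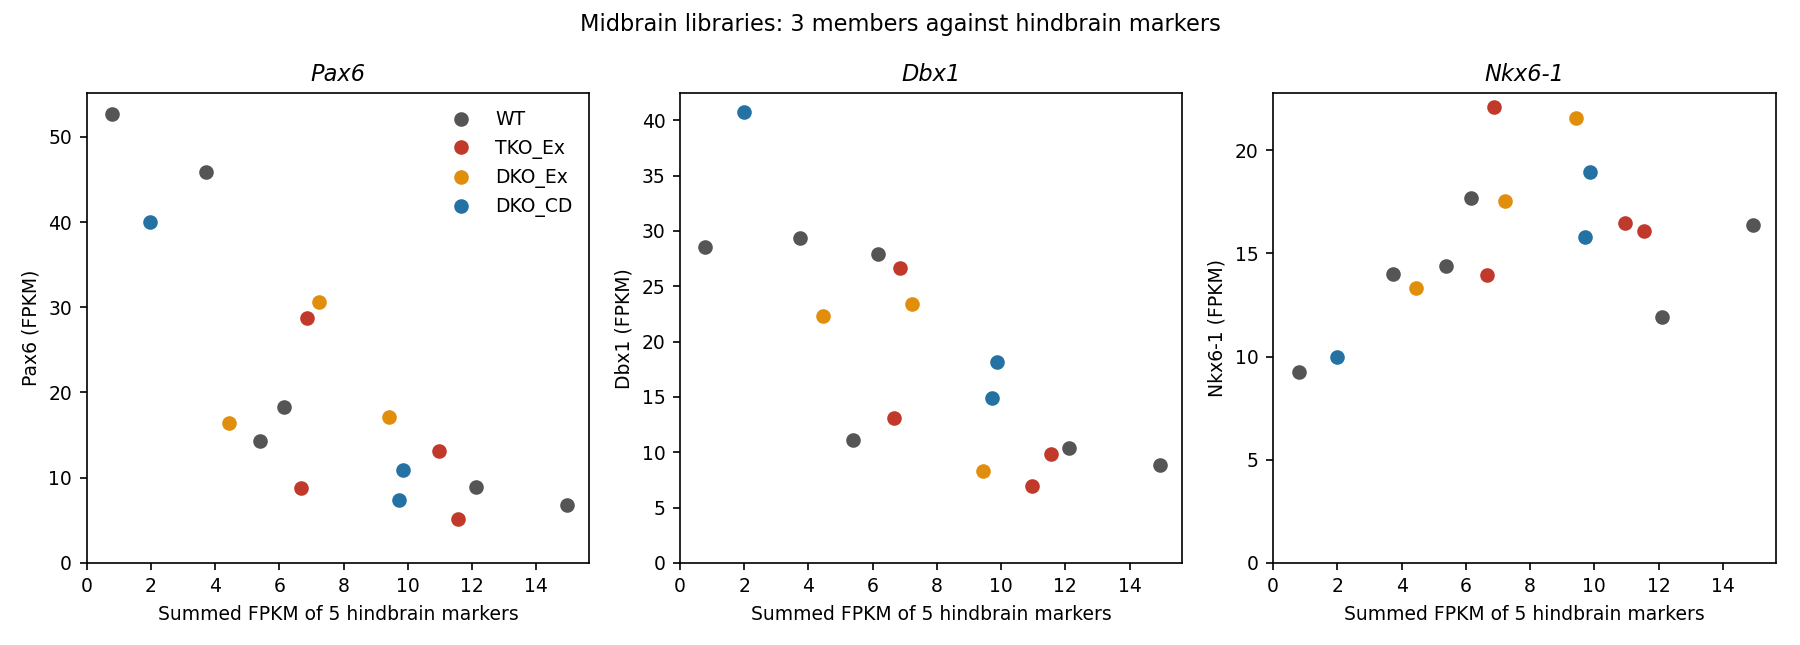
FPKM of Pax6, Dbx1 and Nkx6-1 in each of the 16 Mb libraries against the summed FPKM of 5 hindbrain markers in the same library, coloured by group. Pax6 and Dbx1 fall from left to right, from 52.7 FPKM of Pax6 at a sum of 0.790 FPKM to 6.83 FPKM at a sum of 14.9 FPKM, both in WT.

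The genes most like each member were found by Pearson correlation over the 16 libraries of a tissue, among 13363 genes in Mb and 13272 in Fb with a mean of at least 1 FPKM. In the Mb, Pax6 was most like Fgfr2 (0.875), Afap1 (0.871) and Pabpc1l2a-ps (0.866), Dbx1 like Srrm4 (0.858), Fgfr3 (0.848) and Vtn (0.845), and Olig2 like Lhx5 (0.910), Barhl1 (0.870) and B930095G15Rik (0.868). Lhx5 and Barhl1 are homeodomain genes of the diencephalon and of other regions. Pax7 was most like Mcm9 (0.827), Avl9 (0.772) and Flywch2 (0.740), and Nkx6-1 like Add3 (0.775) and Ipo9 (0.769). Foxa1 was most like Slc29a3 (0.839), Jun (0.817) and Mxi1 (0.802), Foxa2 like Bnip3l-ps (0.797), Idh1 (0.781) and Pla2g16 (0.776), and Nkx2-2 like Tm2d3 (0.745), Gm10074 (0.701) and Efcab7 (0.693). The pseudogenes named here may share reads with their parent genes.

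In the Fb the nearest genes were others. Pax6 was most like Lrp11 (0.858), Gm7204 (0.811) and Rnf214 (0.801), and Dbx1 like Cdkn1c (0.915), Itgb8 (0.855) and Trp53i11 (0.839). Olig2 was most like Foxd1 (0.83), Ddit4l (0.787) and Tra2b (0.754), Pax7 like Gm28036 (0.821), Metrnl (0.811) and Zfp346 (0.769), and Nkx6-1 like Gm45669 (0.824), Rnf4 (0.813) and Slc25a10 (0.776). Foxa1 was most like Cox20 (0.871), Lrtm1 (0.842) and Sulf1 (0.827), Foxa2 like Postn (0.852), Gm43719 (0.820) and Sp5 (0.811), and Nkx2-2 like Dpysl2 (0.840), Sparc (0.790) and Trpm7 (0.776). All of these are the extremes of many correlations over 16 libraries and are given without a test.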

How the data were processed

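Reads of strand-specific libraries were mapped by the authors with TopHat2 (GRCm38), and the deposited values are FPKM computed by Cufflinks for each gene. Versions and annotation are not given in the sources used here. FPKM of 65 repeated identifiers were summed, and 48218 of 48576 were found in GENCODE M21. Fragments per library were inferred from the spacing of the low FPKM in 771 genes with a single transcript. Without further scaling, log2(FPKM + 1) entered limma 3.58.1 (R 4.3.3, mean-variance trend) for genes whose mean reached 1 FPKM, with only the groups compared in each fit. Members below that were tested with two-sided exact permutation tests (Python 3.11.15). The fit was tested on simulated data with the same dispersion, 0.02, for every gene. That test does not show what could be detected for members that varied widely, such as Pax6 in WT Mb (coefficient of variation 80.7%). The members and lists were chosen with earlier results of these data known. Besides the 10 members, Shh, Pax3, every other listed gene past the threshold or else that with the lowest p of its list, and the 3 genes most correlated with each member were named. Some genes that this rule names are not reported here. Alternatives were no filter, pseudocounts of 0.1 and 5, median-of-ratios scaling, no trend, all groups in one fit, a replicate block, DKO groups by record and leaving out each library, and, added after seeing the data, both DKO groups as 1. Each table was labelled as a separate sample, and p-values measure the spread between these.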

Additional observations from a re-analysis of the deposited data

Results flagged for a closer look

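A library far from the others of its group was looked for in 38 groups of 4 or 6 libraries, where chance alone marks about 1 in 20, and 4 were found. Dbx1 in TKO_Ex Fb replicate 4 was 54.5 FPKM, the nearest library having 18.4 FPKM. Gsx2 in the same library was 2.60 FPKM, the nearest having 0.335 FPKM. Nkx2-2 in TKO_Ex Fb replicate 1 was 3.86 FPKM, the nearest having 1.76 FPKM. Olig2 in WT Mb replicate 5 was 3.54 FPKM, the nearest having 1.05 FPKM.

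All libraries of a mutant group moved one way in Mb and the other way in Fb, against the WT mean, for 2 members. Olig2 in TKO_Ex differed from WT by -0.56 (log2) in Mb and 0.47 in Fb, so that the difference between the tissues was -1.03. The WT Mb mean of Olig2, 1.11 FPKM, includes replicate 5 at 3.54 FPKM, so the shared direction in Mb leans on that library. The TKO_Ex Mb values of Olig2 stood for an estimated 0 to 4.44 fragments. Sim1 in DKO_CD differed by -0.30 in Mb and 0.31 in Fb, so that the difference between the tissues was -0.61. Neither difference was tested.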

How the results depend on the processing

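No member passed the threshold in a mutant comparison under any alternative, over 1669 estimates of members (lowest adjusted p 0.348), of which 141 had the other sign than in the comparison as reported. Median-of-ratios scaling moved the median of all genes by at most 0.06 (log2). Between WT Mb and WT Fb, members past the threshold were 3 without a filter, 3 with the replicate block and 3 to 5 with 1 library left out, and genes 870 to 1317. The count fell to 3 without WT Fb replicates 1, 2, 5 or 6, with Pax6, Pax7 and Foxa1 lost. The cause was not tested. Genes past the threshold against WT moved in these settings. Without a filter they were 6 in TKO_Ex Mb, 5 in TKO_Ex Fb and 15 in DKO_CD Fb. Without a trend they were 3 in TKO_Ex Mb and 3 for DKO_Ex against DKO_CD Fb. With a pseudocount of 5 they were 9 in DKO_CD Fb and 3 for DKO_Ex against DKO_CD Mb, and with median-of-ratios scaling 9 in DKO_CD Fb. With all groups in one fit they were 9 in DKO_CD Mb and 0 for DKO_Ex against DKO_CD in both tissues. By record they were 5 in DKO_Ex Mb, 12 in DKO_CD Mb, 5 in DKO_Ex Fb, 10 in DKO_CD Fb and 15 in the exencephalic Fb. With both DKO groups as 1, a setting chosen after seeing the data, they were 18 in the Fb.

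With the replicate block, genes past the threshold were 0 in TKO_Ex Mb, 1 in DKO_Ex Mb, 1 in DKO_CD Mb, 0 in TKO_Ex Fb, 2 in DKO_Ex Fb, 0 in both exencephalic comparisons, and 1 and 0 for DKO_Ex against DKO_CD in Mb and Fb. Same-numbered WT and mutant libraries correlated at -0.09 to 0.05, and Fb with Mb libraries sharing a group and a number at 0.01 to 0.14, with 14 of 16 closest to their own number, a hint that Fb and Mb of a number belong together. The fits without the block were kept, since no label states the pairing.

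With 1 library left out, genes past the threshold were 4 to 52 in TKO_Ex Mb (52 without WT Mb replicate 1), 3 to 14 in DKO_Ex Mb, 3 to 10 in DKO_CD Mb, 0 to 8 in TKO_Ex Fb (0 without TKO_Ex Fb replicate 2), 6 to 14 in DKO_Ex Fb, 2 to 10 in DKO_CD Fb, 10 to 19 in the exencephalic Mb, 13 to 24 in the exencephalic Fb, 1 to 10 for DKO_Ex against DKO_CD Mb and 1 to 4 in the Fb. The depth limits Gsx2, Sim1 and Olig2 in the Mb. It also limits Nkx6-1, Nkx2-2 and Foxa1 in the Fb, whose lowest libraries stood for an estimated 5.22, 5.96 and 6.49 fragments.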
